A study of Mus musculus with 6 samples.

Results

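The genes described here are those of cholesterol synthesis and its control by SREBP, the sterol regulatory element-binding proteins. They were chosen by name: 6 enzymes of the mevalonate arm, 11 enzymes of the squalene and sterol arm, 6 regulators or carriers of sterols and 5 enzymes at the entry to fatty acid synthesis. All 28 were found among the 54532 genes of the deposited table, and all 28 were among the 17318 genes that passed the filter on low counts. The study sequenced RNA from the ear skin of mice aged 3 months in 6 libraries. The 3 control libraries came from mice labelled Ufl1f/+ or Ufl1f/f, in which 1 or both Ufl1 alleles are floxed and no Cre is present, and the labels do not say which control has which genotype. The 3 knockout (cKO) libraries came from Ufl1f/f mice with KRT14Cre/+, in which the keratin 14 promoter drives Cre in basal keratinocytes and the epithelial cells that descend from them. Floxed alleles were thus present in all groups, and Cre in the cKO alone, so effects of Cre and of the loss of Ufl1 cannot be told apart. Whether each library stands for its own animal is not stated in the labels. The p-values therefore only set the difference between groups against the spread of libraries within groups, which may be technical variation.

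Total counts ranged from 17256339 to 20776539 per library, of which the 28 genes took between 0.434% and 0.778%. Ufl1, which encodes the ligase that attaches UFM1 to proteins, was read as CPM, a count divided by the effective size of its library. Controls 1 to 3 had 57.9, 47.0 and 46.1 CPM of it, and cKO 1 to 3 had 34.9, 35.6 and 38.8 CPM. The cKO libraries were all below the controls. Markers of skin were abundant in every library, with Krt10 (suprabasal keratinocytes) at 3449 to 5757 CPM and Col1a1 (fibroblasts) at 2394 to 5539 CPM. Over all genes the edgeR quasi-likelihood test, at a threshold of 0.05 on the adjusted p, called 2 genes higher in the cKO and 1 lower (0.0173% of the genes tested). The mitochondrial share was 4.59% for control 1 and ranged from 2.28% to 2.97% elsewhere.

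Cholesterol is built from acetyl-CoA through mevalonate, isoprenyl pyrophosphates, squalene and lanosterol. When the endoplasmic reticulum membrane is low in sterol, SCAP escorts SREBP to the Golgi, where it is cleaved and released as a transcription factor, while INSIG proteins hold the complex back when sterol is abundant. SREBP2 acts mainly on genes of sterol synthesis, and SREBP1 mainly on genes of fatty acid synthesis. In skin, keratinocytes make cholesterol for the barrier of the stratum corneum, and sebaceous glands make lipid for secretion.

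SREBP binds promoters together with partners such as NF-Y, whose box is CCAAT. Promoters from RefSeq (build GRCm38.p6) were matched for 24 of the 28 genes, without Fdps, Fdft1, Sqle and Stard4, and the 250 bases before each start were searched on both strands. The box CCAAT was present in at least 1 promoter of 21 of the 24 genes (87.5%), beside 37.5% of the 27025 genes in the promoter table. Counted by promoter, 22 of 33 held it (66.7%), beside 33.8% of 32851 promoters of the same length. The sterol regulatory element consensus TCACNCCAC was found in 1 of the 24 genes, Hmgcs1 (4.17%), and in 1.22% of all genes. The E-box CACGTG was in 5 of the 24 genes, Hsd17b7, Sc5d, Dhcr7, Insig1 and Scap, and in 6.86% of all genes. Of the 33 windows, 21 reached into the GENCODE model of their own gene, whose start can lie ahead of the RefSeq start. These matches are descriptions of letters in the window, not binding sites.

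Shown here are the window of Hmgcs1, which alone holds the sterol element, and the window of Hsd17b7, which had the second smallest p in the comparison of genotypes. Each is read 5′ to 3′ on the strand of its gene and ends before the gene model of GENCODE M21. Hmgcs1 is given whole, at chr13:119690101-119690350 (plus strand). Hsd17b7 is given for 214 bases at chr1:169969242-169969455 (minus strand). The last 36 bases of its window lie in the GENCODE gene model, with 1 of its 3 CCAAT boxes. Capitals mark TCACNCCAC, present in Hmgcs1 from 137 to 129 bases before the RefSeq start, and ATTGG, which is CCAAT on the other strand.
Hmgcs1: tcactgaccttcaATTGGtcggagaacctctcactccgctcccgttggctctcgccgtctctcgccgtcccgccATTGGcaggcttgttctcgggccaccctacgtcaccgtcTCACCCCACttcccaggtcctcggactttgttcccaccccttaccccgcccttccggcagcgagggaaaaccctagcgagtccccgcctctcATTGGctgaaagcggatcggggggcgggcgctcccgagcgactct
Hsd17b7: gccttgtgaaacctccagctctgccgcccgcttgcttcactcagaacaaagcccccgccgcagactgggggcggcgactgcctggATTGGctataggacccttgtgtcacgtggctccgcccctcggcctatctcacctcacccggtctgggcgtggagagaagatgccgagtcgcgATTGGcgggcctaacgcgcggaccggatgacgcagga
The window of Acss2, the gene with the smallest p, had 1 CCAAT box on the other strand. The box is among the 95 bases of the window that lie in the GENCODE gene model.

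Levels per gene length were read from the deposited FPKM. By the median over the 6 libraries, Msmo1, the methylsterol oxidase, was highest at 110 FPKM. Hmgcs1, which makes HMG-CoA, followed at 97.6 FPKM, then the fatty acid synthase Fasn at 77.5 FPKM, the lanosterol demethylase Cyp51 at 72.3 FPKM and Srebf1, the gene of SREBP1, at 70.6 FPKM. The ranges of these 5 genes over the libraries overlapped, apart from that of Msmo1 (94.3 to 170 FPKM), which stood clear of that of Srebf1 (55.1 to 88.4 FPKM). Srebf2, the gene of SREBP2, had a median of 30.8 FPKM (21.3 to 33.8 FPKM), and all 6 values were below the lowest of Srebf1. At the low end were Acss2, the cytosolic acetyl-CoA synthetase, at 5.50 FPKM, and Acaca, the acetyl-CoA carboxylase, at 4.87 FPKM. Below them were Tm7sf2, a sterol reductase, at 2.53 FPKM, and Fdps, the farnesyl pyrophosphate synthase, at 1.07 FPKM. FPKM depends on the deposited gene length, which was 10163 bases for Acss2, 17074 for Acaca and 2675 for Mvk, the mevalonate kinase. By the mean of the controls, Acss2 (76.2 CPM) and Acaca (90.0 CPM) were above Mvk (62.6 CPM), whose median was 21.4 FPKM. In the GENCODE M21 annotation Fdps shares 26.7% of its exon bases with Gm43738 on the same strand, a gene listed with 0 counts, and Tm7sf2 shares 12.1% with Vps51. The sources used here do not say how reads in such exons were assigned, and the low levels of Fdps and Tm7sf2 are uncertain.

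**Figure D1:**
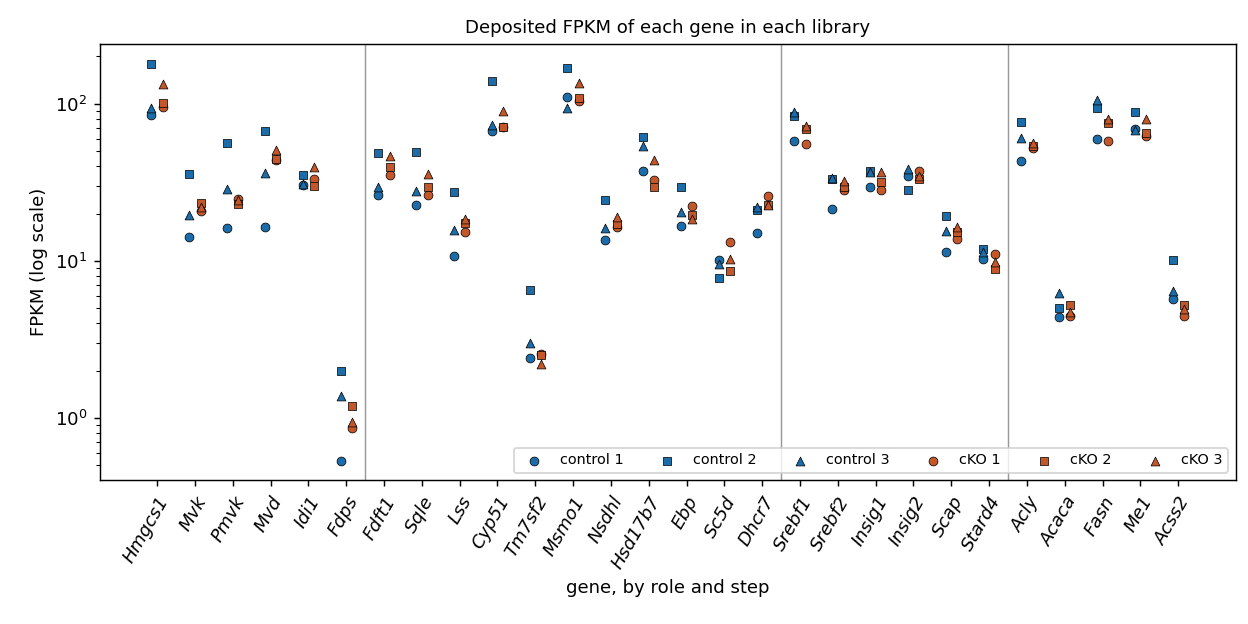
Deposited FPKM (log axis) of the 28 genes by role and step, with 1 point per library, controls in blue and cKO in orange. Msmo1 and Hmgcs1 are the highest by median (110 and 97.6 FPKM), Fdps is the lowest, and the controls of most sterol genes lie farther apart than the cKO libraries.

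The largest feature of these genes was the order of the control libraries. Control 2 was the highest of all 6 libraries for 20 of the 28 genes (71.4%) and control 1 the lowest for 16 (57.1%), while over all genes tested the shares were 27.1% and 25.5%. Among the controls alone, control 1 was below control 3 and control 3 below control 2 for 19 genes (67.9%), beside 27.3% of all genes. The 3 cKO libraries lay inside the range of the controls for 17 of the 28 genes (60.7%; 36.3% of all genes). The standard deviation of log2 CPM was larger among controls than among cKO libraries for 25 of 28 genes (89.3%), which was also the case for 71.0% of all genes. The median standard deviation of the 28 genes was 0.43 among controls and 0.15 among cKO on the log2 scale, beside 0.27 and 0.15 over all tested genes with a mean of at least 2 CPM.

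The enzymes of the mevalonate arm differed most between the controls. Mvd, the mevalonate pyrophosphate decarboxylase, had 30.9, 126 and 67.9 CPM in controls 1 to 3 and 81.8, 83.4 and 95.3 CPM in cKO 1 to 3. Control 2 was 4.08-fold above control 1, and all cKO libraries lay between controls 3 and 2. Pmvk, the phosphomevalonate kinase, had 27.7, 97.7 and 49.6 CPM in the controls and 42.6, 39.9 and 42.0 CPM in the cKO, a 3.53-fold range among controls and a 1.07-fold range among cKO. For Fdps the ratio of control 2 to control 1 was 3.75, and for Mvk, the mevalonate kinase, 2.53. The isomerase Idi1, which interconverts the isoprenyl pyrophosphates, stood apart from these with 108, 126 and 109 CPM in the controls and 118, 106 and 139 CPM in the cKO, and its highest library was cKO 3. The median ratio of control 2 to control 1 was 3.03 in the mevalonate arm, 1.81 in the squalene and sterol arm, 1.36 among regulators and carriers and 1.60 at the fatty acid entry, beside 0.982 over all tested genes with a mean of at least 2 CPM.

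**Figure D2:**
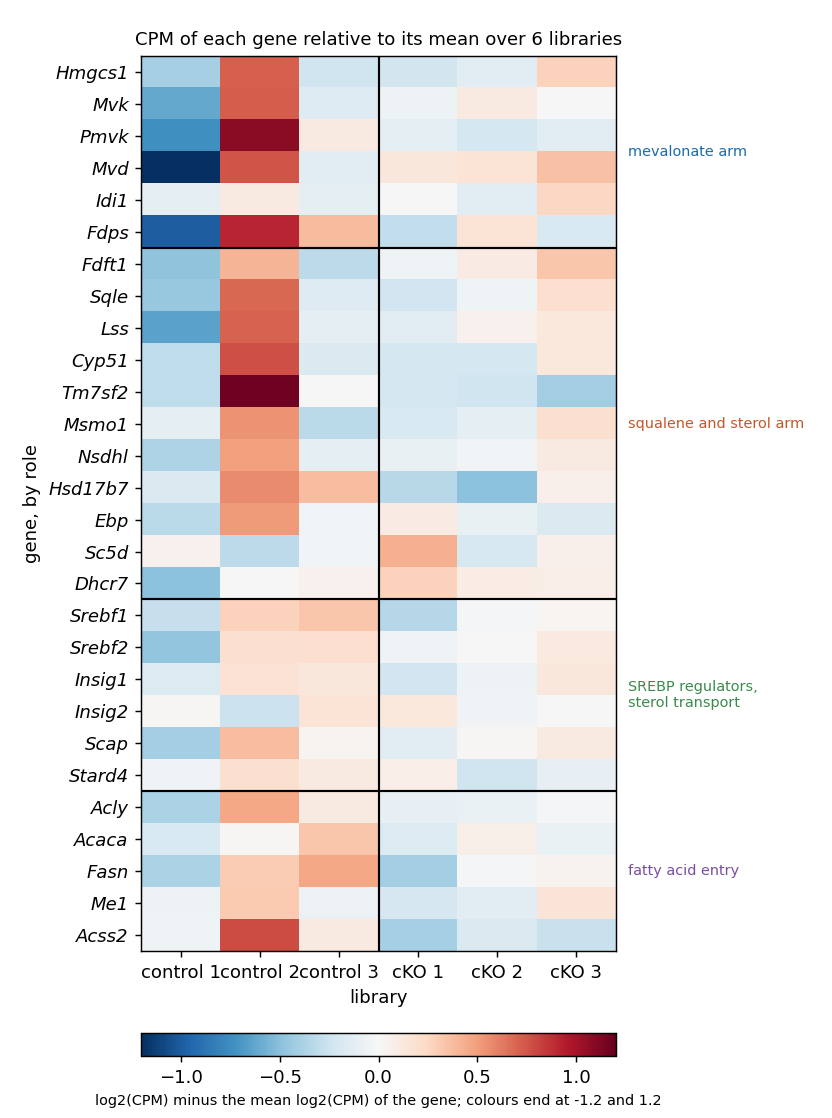
Heat map of the 28 genes (rows, by role) in the 6 libraries (columns), coloured by log2 CPM minus the mean of the gene, with colours ending at the limits of the scale bar. Control 2 is red in nearly every row from Hmgcs1 to Ebp and control 1 blue, while the 3 cKO columns are pale; Sc5d and Insig2 are blue in control 2.

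In the comparison of genotypes, which asks whether deletion of Ufl1 from keratin 14 lineage cells changes these transcripts in ear skin, no gene of the 28 was called. At an adjusted p under 0.05, 0 rose and 0 fell in edgeR (0.0115% of all genes were called higher and 0.00577% lower), and the smallest adjusted p was 0.857. DESeq2 also called 0 of the 28, where 0.413% of all genes passed. It had 3 lower and 0 higher at an unadjusted p under 0.05, beside 1.24% and 2.3% of the 30720 genes it fitted. By the authors' deposited table, too, none of the 28 had an adjusted p under 0.05, and the smallest was 0.651, for Acss2. At an unadjusted p under 0.05 edgeR had 2 genes lower (1.95% of all genes) and 0 higher (3.38% of all genes), or 5.33% of all genes in either direction. Log2 fold changes were negative for 21 genes and positive for 7, and their median was -0.12, beside a median of -0.01 over all genes tested. Levels in the genotypes did not overlap for 1 gene that was lower, Acss2 (4.81% of all genes), and for 1 that was higher, Dhcr7 (5.73% of all genes). Whole ear skin was sequenced, so fewer cells of a type and less RNA per cell cannot be told apart in any of these values.

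The direction of 14 of the 28 differences turned when control 2 was left out, and that of 2 when control 1 was. Without control 2 the median log2 fold change of the 28 genes was 0.12, with 19 positive and 9 negative, and without control 1 it was -0.28, with 5 positive and 23 negative. Without control 1 edgeR had 8 genes lower at an unadjusted p under 0.05 (Pmvk, Fdps, Tm7sf2, Hsd17b7, Srebf1, Acly, Fasn and Acss2; 5.32% of all genes) and 0 higher (5.2% of all genes). Without control 2 it had 3 higher (Mvk, Mvd and Fdft1; 4.36% of all genes) and 1 lower (Acss2; 2.53% of all genes). In both cases 0 of the 28 passed the adjusted threshold.

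**Figure D3:**
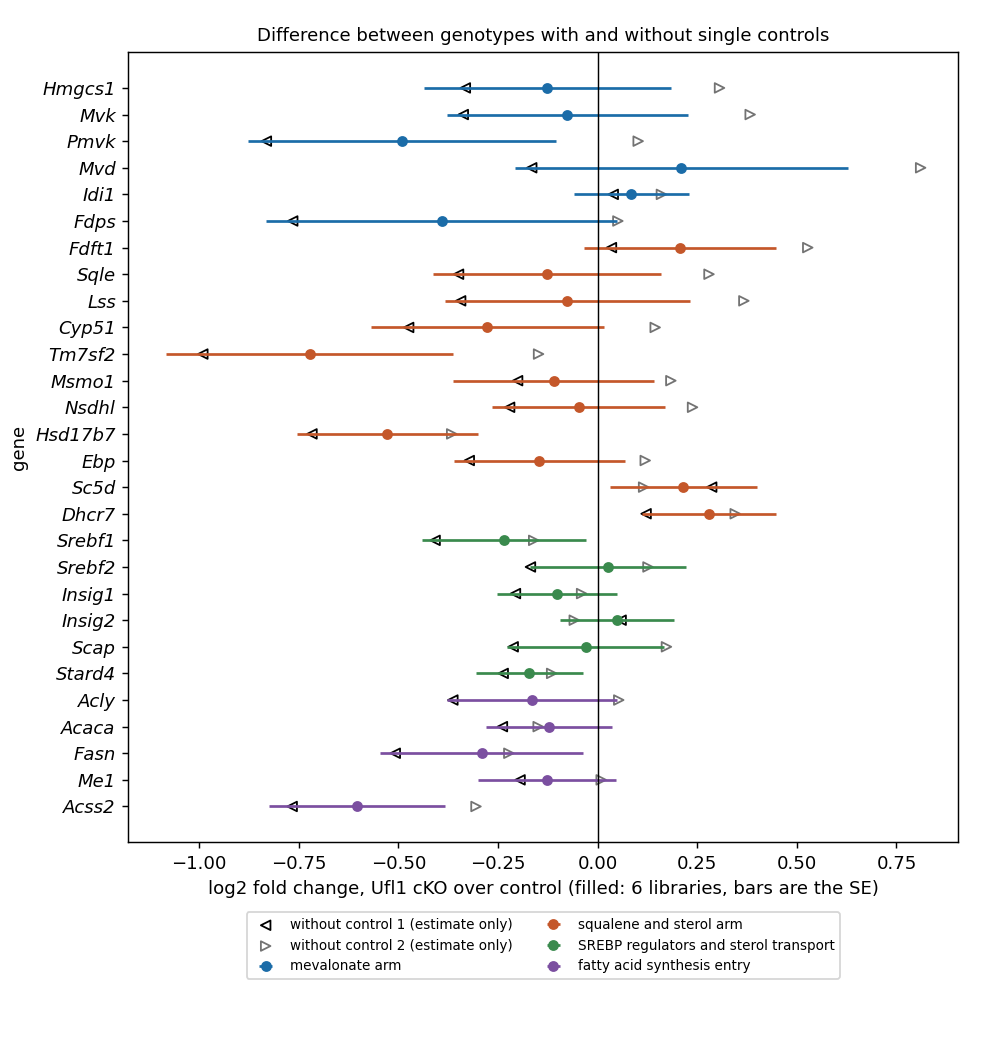
Log2 fold change of the cKO over the control for each of the 28 genes, with filled points and SE bars for all 6 libraries and open triangles for fits without control 1 (pointing left) or control 2 (pointing right). For Hmgcs1, Mvk, Sqle and Lss the triangles lie on opposite sides of 0, while those of Acss2, Hsd17b7 and Tm7sf2 stay below it.

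In the mevalonate arm log2 fold changes were negative for 4 of 6 genes and positive for 2. Their median was -0.10, which was 0.23 without control 2 and -0.33 without control 1. Hmgcs1 (chromosome 13, 119690379 to 119708260, mm10) had 389, 842 and 432 CPM in controls 1 to 3 and 440, 464 and 619 CPM in cKO 1 to 3. Its means were 554 ± 250 CPM in the controls and 508 ± 96.9 CPM in the cKO (SD, n = 3 each). The log2 fold change was -0.13 (SE 0.31, 95% interval -0.84 to 0.59), so neither a fall nor a rise of that size was detectable here. Mvk had 38.2, 96.8 and 52.8 CPM in the controls and 56.4, 63.1 and 58.8 CPM in the cKO, a log2 fold change of -0.08 (SE 0.30). Pmvk, with means of 58.3 ± 35.8 and 41.5 ± 1.43 CPM (SD, n = 3 each), was at -0.49 (SE 0.39, adjusted p = 0.997 in edgeR), or 0.10 without control 2. Fdps was at -0.39 (SE 0.44), Idi1 at 0.08 (SE 0.14) and Mvd at 0.21 (SE 0.42). The interval of Idi1, -0.25 to 0.42, was the narrowest of the 6 genes.

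In the squalene and sterol arm they were negative for 8 of 11 genes and positive for 3. Their median was -0.11, which was 0.18 without control 2. Hsd17b7, the 3-ketosteroid reductase of the pathway (chromosome 1, 169949535 to 169969241), had 191, 318 and 277 CPM in the controls and 170, 152 and 223 CPM in the cKO. The means were 262 ± 65.0 and 182 ± 36.7 CPM (SD, n = 3 each). In edgeR the difference was -0.53 on the log2 scale (SE 0.23, adjusted p = 0.929, or 0.0483 unadjusted), and it lay between -0.72 and -0.37 when single libraries were left out. The groups overlapped, since cKO 3 exceeded control 1. Tm7sf2 had 13.5, 37.4 and 16.8 CPM in the controls and 14.4, 14.2 and 12.5 CPM in the cKO, with means of 22.5 ± 12.9 and 13.7 ± 1.05 CPM (SD, n = 3 each) and a log2 fold change of -0.72 (SE 0.36, adjusted p = 0.953 in edgeR). Control 2 alone was far from the other 5 libraries, and without it the log2 fold change was -0.15.

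The enzymes of the last steps of the arm had positive values. Dhcr7, the 7-dehydrocholesterol reductase that forms cholesterol (chromosome 7, 143823145 to 143848410), had 88.6, 124 and 129 CPM in the controls and 151, 132 and 132 CPM in the cKO. All cKO libraries were above all controls, although cKO 2 and 3 exceeded control 3 by little. The means were 114 ± 22.3 and 139 ± 11.1 CPM (SD, n = 3 each), and the log2 fold change was 0.28 (SE 0.17, adjusted p = 0.981 in edgeR). Sc5d, the desaturase acting just before it, had 49.6, 38.5 and 46.7 CPM in the controls and 64.5, 42.0 and 49.9 CPM in the cKO. The means were 44.9 ± 5.74 and 52.1 ± 11.4 CPM (SD, n = 3 each), and the log2 fold change was 0.22 (SE 0.19, adjusted p = 0.997 in edgeR). Control 2, the highest library for 9 of the 11 genes, was the lowest for Sc5d. Both genes kept a positive value without any single library, with a smallest value of 0.12 for Dhcr7 (without control 1) and 0.04 for Sc5d (without cKO 1).

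The other 7 genes of the arm were within the range of the controls in all cKO libraries. Msmo1 had 680, 1061 and 583 CPM in the controls and 644, 676 and 832 CPM in the cKO, and Cyp51 had 298, 629 and 326 CPM and 317, 317 and 400 CPM. Sqle, the squalene epoxidase, had 126, 277 and 155 CPM in the controls and 147, 166 and 198 CPM in the cKO. In each of these 3 genes control 2 was the highest library. Lss, the lanosterol synthase, had 117, 299 and 170 CPM in the controls and 167, 190 and 200 CPM in the cKO. Log2 fold changes were -0.11 for Msmo1, -0.28 for Cyp51, -0.13 for Sqle, -0.08 for Lss, -0.05 for the decarboxylating dehydrogenase Nsdhl and -0.15 for the sterol isomerase Ebp, with SE between 0.22 and 0.31. All 6 were positive without control 2. Fdft1, the squalene synthase, had 112, 208 and 126 CPM in the controls and 151, 168 and 197 CPM in the cKO, a log2 fold change of 0.21 (SE 0.24) that was 0.53 without control 2 and 0.035 without control 1. Fdft1 shares 18.3% of its exon bases with Ctsb on the opposite strand, a gene with 95954 counts over the libraries, and the sources used here do not state whether counting used the strand.

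Among the 6 regulators and carriers 4 log2 fold changes were negative and 2 positive, with a median of -0.07 (-0.21 without control 1 and -0.05 without control 2), and the median standard deviation of log2 CPM among controls was 0.27, beside 0.79 in the mevalonate arm. Srebf1 had 328, 481 and 501 CPM in the controls and 314, 394 and 405 CPM in the cKO, a log2 fold change of -0.23 (SE 0.21) that was -0.41 without control 1 and -0.12 without control 3, and cKO 1 was its lowest library. Srebf2 had 154, 242 and 244 CPM in the controls and 207, 214 and 232 CPM in the cKO, a log2 fold change of 0.03 (SE 0.20), whose sign turned under total count and upper-quartile scaling. The anchors Insig1 and Insig2 were at -0.10 (SE 0.15) and 0.05 (SE 0.14), and the escort Scap at -0.03 (SE 0.20). Insig1 had 92.2, 117 and 114 CPM in the controls and 88.1, 98.8 and 114 CPM in the cKO. Insig2, with 121, 100 and 134 CPM in the controls and 130, 116 and 120 CPM in the cKO, had its lowest value in control 2. The 95% interval of Insig2, -0.28 to 0.38, was narrower than that of Hmgcs1. Stard4, which carries sterol between membranes, had 57.5, 67.7 and 63.6 CPM in the controls and 62.5, 50.1 and 55.2 CPM in the cKO. The means were 62.9 ± 5.15 and 55.9 ± 6.21 CPM (SD, n = 3 each), and the log2 fold change was -0.17 (SE 0.14, adjusted p = 0.997 in edgeR).

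All 5 genes at the entry to fatty acid synthesis had negative log2 fold changes, with a median of -0.17. Leaving out control 2 gave -0.15 and leaving out control 1 gave -0.36. Acss2, which makes acetyl-CoA from acetate (chromosome 2, 155517948 to 155585724), had 58.5, 105 and 65.4 CPM in the controls and 46.1, 53.8 and 50.5 CPM in the cKO. All cKO libraries were below all controls. The means were 76.2 ± 24.9 and 50.2 ± 3.89 CPM (SD, n = 3 each). In edgeR the difference was -0.60 on the log2 scale (SE 0.22, adjusted p = 0.857, or 0.0256 unadjusted), which is 0.658 of the control level. Leaving out single libraries gave values between -0.77 and -0.31, the latter without control 2. Acss2 shares 3.89% of its exon bases with Gss, 3.3% with Acss2os and 1.94% with Ggt7, all on the opposite strand. Over the libraries these had 2290, 0 and 362 counts, beside 7158 for Acss2. Whether counting used the strand is not stated for these either.

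Fasn had 653, 1044 and 1171 CPM in the controls and 639, 833 and 873 CPM in the cKO. The means were 956 ± 270.1 and 781 ± 125 CPM (SD, n = 3 each), and the log2 fold change was -0.29 (SE 0.25, adjusted p = 0.997 in edgeR), with -0.51 without control 1 and -0.12 without control 3. Control 1 lay within the spread of the cKO, and controls 2 and 3 exceeded every cKO library. Acly, the ATP citrate lyase that supplies cytosolic acetyl-CoA, had 230, 412 and 324 CPM in the controls and 280, 284 and 296 CPM in the cKO, a log2 fold change of -0.17 (SE 0.21). Acaca had 75.5, 86.7 and 108 CPM in the controls and 76.7, 90.1 and 81.3 CPM in the cKO, and the malic enzyme Me1, a source of NADPH, had 266, 344 and 264 CPM and 241, 251 and 308 CPM. Their log2 fold changes were -0.12 (SE 0.16) and -0.13 (SE 0.17). The cKO libraries lay inside the range of the controls for Acly and Acaca and reached below it for Fasn and Me1.

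Other genes of these pathways were read from the same fit. Of 12 further genes of sterol synthesis and of the SREBP2 response, edgeR called 0 higher and 0 lower (0 also at an unadjusted p under 0.05), 10 were negative and the median log2 fold change was -0.13 (0.06 without control 2). Among them Acat2, the cytosolic thiolase ahead of Hmgcs1, had 130, 287 and 140 CPM in the controls and 120, 115 and 152 CPM in the cKO, the same order of controls as for the enzymes above. Por, the electron donor of Cyp51 and Sqle, was at -0.28 (SE 0.16), and Npc2, which exports sterol from lysosomes, was at 0.30 (SE 0.16). All cKO libraries were above all controls for Npc2 alone of the 12 genes (5.73% of all genes). Of 11 genes of SREBP processing and sterol-regulated degradation 0 were called (0 unadjusted), with a median of 0.05 (-0.0070 without control 2). Their score (the mean over genes of log2 CPM minus the mean of the gene) lay between -0.08 and 0.02 in the controls, beside -0.68 to 0.71 for the mevalonate arm. In that list Pgrmc1 was at -0.32 (SE 0.18) and Tmed2 at 0.20 (SE 0.12). Tmed2 alone of the 11 had all cKO libraries above all controls (5.73% of all genes).

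The isoprenoid branch turns farnesyl pyrophosphate into dolichol, ubiquinone and prenyl groups. Of 10 of its genes 0 were called (1 higher unadjusted, beside 3.38% of all genes), and the median was -0.03 (0.055 without control 2). Pggt1b, a subunit of an enzyme that adds geranylgeranyl groups to proteins, had 13.4 to 19.5 CPM in the controls and 20.6 to 24.4 CPM in the cKO without overlap, a log2 fold change of 0.46 (SE 0.19, adjusted p = 0.913 in edgeR). Pdss1, of ubiquinone side chain synthesis, was at -0.70 (SE 0.38), or -0.09 without control 2, and Dhdds, of dolichol synthesis, at 0.22 (SE 0.12). Pggt1b and Dhdds were the 2 genes of the 10 with all cKO libraries above all controls (5.73% of all genes). Of 12 receptors and targets of LXR, the sensor of oxysterols, 0 were called (0 unadjusted), with a median of 0.02 (0.21 without control 2). Nr1h3, which encodes LXR alpha, was at 0.24 (SE 0.15) and Lpcat3 at 0.28 (SE 0.18). Ch25h, which makes 25-hydroxycholesterol, was at 0.93 (SE 0.50), with at most 3.82 CPM in any library. Nr1h3 alone of these 12 had all cKO libraries above all controls (5.73% of all genes).

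Of 15 genes of lipid synthesis under SREBP1 or ChREBP, edgeR called 0 (2 lower unadjusted, beside 1.95% of all genes). DESeq2 called 1, Elovl5, as lower, where 0.413% of all genes passed in either direction. Elovl5, a fatty acid elongase, had 211, 242 and 220 CPM in the controls and 102, 107 and 119 CPM in the cKO, a log2 fold change of -1.03 (SE 0.13, adjusted p = 0.105 in edgeR and 1.32e-07 in DESeq2). Its groups were far apart, and none of the 28 genes differed by as much. Acacb, the mitochondrial acetyl-CoA carboxylase, was at -0.64 (SE 0.28) and Elovl6, the elongase of palmitate, at -0.62 (SE 0.27), and they were at -0.26 and -0.38 without control 2. The list had 9 negative genes of 15 and a median of -0.22 (-0.12 without control 3).

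Marker genes of skin cell types were set beside the sterol genes, library by library. The summed level of 7 basal keratinocyte markers, which include Krt14 and Krt5, was 3364, 10973 and 5019 CPM in controls 1 to 3 and 5696 to 7391 CPM in the cKO. Its order in the controls was that of the mevalonate arm, and 0 of the 7 were called. That order was not particular to basal keratinocytes. Sums of suprabasal keratinocyte markers (5730, 10206 and 7611 CPM in controls 1 to 3) and Schwann cell markers (679, 1113 and 776 CPM) had it too. So did those of sebocyte and proliferation markers, and the remaining lists had other orders. The scores of the mevalonate arm were -0.68, 0.71 and -0.03 in controls 1 to 3 and those of the basal markers -0.56, 0.75 and -0.13. The summed level of 5 fibroblast markers ran the opposite way, with 18863, 6893 and 12333 CPM in the controls and 14987 to 15949 CPM in the cKO. The sum of 10 adipocyte markers was 3117, 1402 and 2957 CPM in the controls and 1609 to 2259 CPM in the cKO, and that of 11 sebocyte markers was 2303, 3800 and 2714 CPM and 2643 to 2944 CPM. None of these markers was at 0 counts in all libraries. The part of the mix of cells in the differences of sterol genes was not tested.

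**Figure D4:**
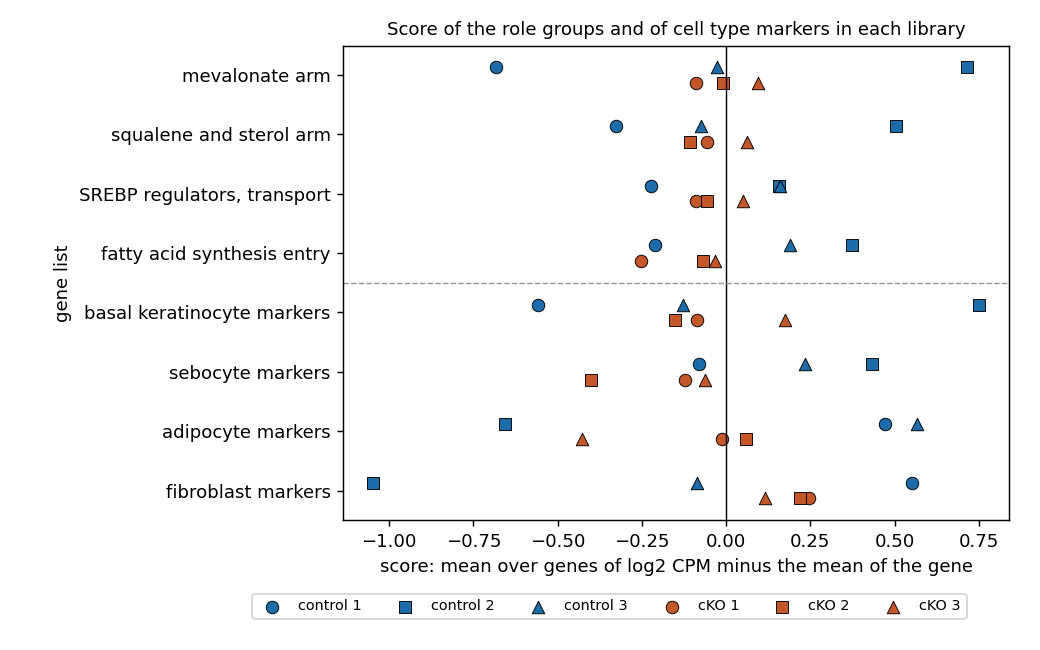
Score (mean over the genes of a list of log2 CPM minus the mean of the gene) of the 4 role groups, above the dashed line, and of 4 lists of cell type markers in each library. Controls 1 and 2 are at the ends for the mevalonate arm (-0.68 and 0.71) and for basal keratinocyte markers (-0.56 and 0.75), and in the opposite order for fibroblast markers (0.55 and -1.05).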

How the data were processed

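Total RNA of ear skin was made into libraries with a NEBNext Ultra kit, per the labels' protocols. The submitters' processing notes list HISAT2, HTSeq and mm10 without versions or parameters. Per the file headers, the deposited values are raw counts and FPKM for each gene in each library, a normalized mean count (signal) per group, log2 fold changes of the genotypes, and raw and adjusted p-values. The headers name no test.

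Counts of 17318 of 54532 genes passed filterByExpr and were TMM-scaled. The genotypes, 3 libraries each, were tested with edgeR 4.0.16 (quasi-likelihood, robust, no covariates, two-sided, R 4.3.3), and p-values of all tested genes were adjusted by Benjamini-Hochberg (threshold 0.05). Each SE is the fold change on the log2 scale over the root of its F. Levels are TMM-scaled CPM, and scores use log2 CPM with a prior count of 2. DESeq2 1.42.0 and limma 3.58.1 served as alternatives. The test was run on simulated counts with planted changes. All libraries differed by more than sampling noise (chi-square per degree of freedom at least 17.9). Starts and ends of 27 of the 28 genes equal those of GENCODE M21. The deposited length of Tm7sf2 was 5593 bases, beside 4403 exon bases in GENCODE M21. Its overlap with Vps51 may therefore differ in the model that was counted.

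The 28 genes and all lists were chosen with earlier results of these data known. All 28 are named. The 8 with the smallest p, and Hmgcs1, have fuller statistics. From each further list up to 3 genes with the smallest p are named, and other names were chosen after their values were seen. One such gene is not reported here. Alternatives were RLE, upper-quartile and total count scaling, other filters, DESeq2, limma-voom, limma-trend on log2(FPKM + 1) (mean FPKM 0.5 or more), the replicate number as a block, and leaving out each library.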

Additional observations from a re-analysis of the deposited data

How the results depend on the processing

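In each alternative run, DESeq2 and limma included, 0 of the 28 genes were called higher and 0 lower by the adjusted threshold. At an unadjusted p under 0.05 the runs had 0 to 3 higher and 0 to 8 lower. The shares over all genes were 1.86% to 5.2% higher and 0.955% to 5.32% lower. The median log2 fold change of the 28 genes lay between -0.28 (without control 1) and 0.12 (without control 2) when single libraries were left out, so its sign rests on control 2. With 3 libraries a group and the spread of the controls, differences below about the intervals given above were not detectable. Over all genes, the 2 higher and 1 lower calls became 18 and 7 without a filter on low counts, 60 and 22 in DESeq2, and 0 and 0 in limma-voom and in limma-trend on log2(FPKM + 1) (at an unadjusted p under 0.05, 564 and 327, and 509 and 310). When single libraries were left out they ranged from 0 to 2 in either direction. With the replicate number as a block they were 10 and 2. Deviations from the group mean had correlations of 0.22, -0.04 and -0.04 between same-numbered libraries. The first, of control 1 and cKO 1, was the largest of all pairs, and not every library correlated best with its own number. With 3 libraries a group these values cannot decide whether the numbers mark a pairing, which the labels do not state. Under the block, limma-voom and limma-trend, Mvk turned to 0.031, 0.028 and 0.030, Lss to 0.030, 0.034 and 0.025, and Scap to 0.0012, 0.0034 and 0.0027. Srebf2 turned to -0.0014 under total count and -0.0037 under upper-quartile scaling. Without single libraries the direction held for 10 of the 28 genes and turned for 18, of which 14 turned without control 2. The ranges were -0.33 to 0.31 for Hmgcs1, -0.34 to 0.38 for Mvk, -0.83 to 0.10 for Pmvk, -0.17 to 0.81 for Mvd, -0.028 to 0.17 for Idi1, -0.77 to 0.051 for Fdps, -0.35 to 0.28 for Sqle, -0.34 to 0.37 for Lss, -0.47 to 0.14 for Cyp51, -0.28 to 0.18 for Msmo1, -0.22 to 0.24 for Nsdhl, -0.32 to 0.12 for Ebp, -0.17 to 0.13 for Srebf2, -0.059 to 0.15 for Insig2, -0.21 to 0.17 for Scap, -0.36 to 0.053 for Acly, -0.24 to 0.029 for Acaca and -0.24 to 0.0089 for Me1. The cause of these turns was not tested.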

Other observations

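Sebocyte markers were not uniform in the comparison of genotypes. Scd3, a desaturase of sebaceous glands, had 15.4, 39.3 and 16.7 CPM in controls 1 to 3 and 2.90, 0.444 and 2.30 CPM in cKO 1 to 3, while Plin2, which coats lipid droplets, had 275, 288 and 308 CPM and 440, 435 and 469 CPM. DESeq2 called Scd3 lower and Plin2 higher, where 0.413% of all genes passed in either direction, and edgeR called 0 of the 11 sebocyte markers. At an unadjusted p under 0.05 edgeR had 1 lower and 2 higher, beside 1.95% and 3.38% of all genes. Mc5r, a melanocortin receptor of sebocytes, had at most 12.0 CPM in the controls and up to 17.8 CPM in the cKO, a log2 fold change of 0.48 (SE 0.20). For all 3 genes the groups did not overlap (1 lower and 2 higher of the 11, beside 4.81% and 5.73% of all genes).

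The other lists of cell type markers had median log2 fold changes of 0.16 for suprabasal keratinocytes, -0.27 for hair follicle and matrix, -0.07 for skeletal muscle, 0.18 for cartilage, -0.54 for Schwann cells, 0.40 for macrophages, 2.36 for neutrophils and 0.07 for proliferation, and those of basal keratinocytes, sebocytes, adipocytes and fibroblasts were -0.16, -0.23, -0.29 and 0.20. Several rest on 1 control. Without control 2 the medians were 0.15 for basal keratinocytes, -0.16 for fibroblasts, -0.17 for cartilage, 0.47 for suprabasal keratinocytes, -0.57 for adipocytes, -0.12 for sebocytes, -0.05 for hair follicle, -0.19 for skeletal muscle, 0.16 for macrophages and 0.50 for proliferation. Without control 1 they were 0.47 for skeletal muscle, 0.72 for fibroblasts, 0.37 for cartilage, 0.65 for macrophages, -0.37 for basal keratinocytes, 0.06 for suprabasal keratinocytes, -0.12 for proliferation, -0.19 for adipocytes and 3.63 for neutrophils. Without control 3 they were -0.07 for adipocytes, -0.09 for sebocytes, -0.11 for proliferation, -0.29 for basal keratinocytes, 0.10 for suprabasal keratinocytes, -0.23 for skeletal muscle, 0.32 for cartilage and -0.41 for hair follicle. In edgeR 0 genes of these 12 lists were called over all genes, and at an unadjusted p under 0.05 the Schwann cell list had 4 of 5 lower (1.95% of all genes), and the neutrophil list had 2 of 4 and the suprabasal list 1 of 8 higher (3.38% of all genes). DESeq2 called 1 neutrophil marker higher, Cxcr2 (adjusted p = 0.0436). The sum of the neutrophil markers was 77.8, 6.55 and 14.3 CPM in controls 1 to 3 and 414, 43.1 and 68.6 CPM in cKO 1 to 3, so cKO 1 stood far above the other libraries. Proliferation markers summed to 104, 237 and 116 CPM in controls 1 to 3, the order of the sterol enzymes, and to 172, 128 and 224 CPM in cKO 1 to 3.

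Across the 28 genes, gene length and the ratio of control 2 to control 1 had a Spearman correlation of -0.24, beside -0.08 across 14495 genes with a mean of at least 2 CPM. Genes of 1 pair of libraries are not independent of each other.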
